A study of Mus musculus with 2 samples.

Results

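Cluster 13 is a small group of monocytes and macrophages among the interstitial cells of infarcted mouse ventricles, and it was compared here between 2 single-cell libraries, 1 per genotype. Its members are all 893 genes that the authors listed in their table of that cluster, of 6477 distinct genes listed over the tables of 18 clusters, and the study names the cluster, with 4 others, as macrophages and monocytes. The control library came from hearts with PostnMCM, a tamoxifen-inducible Cre recombinase under the Postn gene, and the other from Yapfl/fl;Wwtr1fl/+;PostnMCM hearts, in which both Yap1 alleles and 1 allele of Wwtr1, which encodes TAZ, can be deleted by that Cre. Both strains also carried an R26-eGFP reporter, all mice were adults that underwent myocardial infarction (MI), and all received chow with 0.4 g/kg tamoxifen for 6 days, after which the hearts were collected according to the labels. Periostin marks activated fibroblasts, so that the Cre is not aimed at the myeloid cells described here. The number of hearts behind each library is not given in the sources used here. Yap1, Wwtr1 and Postn are in no cluster table and have no value in cluster 13. All have values in 4 fibroblast subclusters (0, 3, 4 and 5), and there the targets did not follow the label throughout. Postn, the gene that drives the Cre, was in 25.5% and 28.1% of subcluster 0 cells, control library first. It was in 40% and 13% of subcluster 3, 10% and 20% of subcluster 4, and 87% and 100% of subcluster 5. Subcluster 5 alone thus held Postn in most cells at collection. Yap1 was in 46.2% and 56.2% of fibroblasts of subcluster 0, control library before the other, in 23.3% and 43.5% of subcluster 3, in 57.5% and 40% of subcluster 4 and in 30.4% and 47.6% of subcluster 5, so that its share was lower in the floxed library in subcluster 4 alone. Wwtr1 was in 81.4% and 90.6%, 93.3% and 91.3%, 80% and 60%, and 100% and 85.7% of cells of the same subclusters. A share of cells with a transcript measures neither protein nor excision, and 1 allele of Wwtr1 was not floxed. By staining, the study found markedly less nuclear Yap and Wwtr1 in GFP-labelled myofibroblasts of the floxed genotype. The library from floxed hearts is named here after its label, as the library labelled depleted. The study asked which genes of the interstitial cells differ when Yap and Wwtr1 are removed from myofibroblasts.

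Classical monocytes leave the bone marrow by way of the chemokine receptor Ccr2, enter injured myocardium within the first days after infarction, and there secrete cytokines, take up debris and mature into macrophages. In mice they are recognised by Ly6c2, Ccr2 and Chil3, while the patrolling, non-classical monocytes that arise from them carry Cx3cr1 and Itgal and depend on the transcription factor Nr4a1. Immediate early genes answer a stimulus without new protein synthesis, and interferon-stimulated genes answer type I and type II interferon through STAT and IRF proteins.

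For every gene the table gives, per library, the percentage of cluster 13 cells in which its normalised count exceeded 0, called its share here. These shares move in steps of 1.05 points in the control library and of 1.41 points in the library labelled depleted, which corresponds to 95 and 71 cells. A share of 0 therefore allows up to 3.16% and 4.23% of cells, respectively. Numbers of cells inferred in the same way for all 18 clusters summed to 2889 and 3131, and can be off by a few cells in the larger clusters. Cluster 16 was not analysed here and is not in these sums. Of the cells in the 18 clusters, cluster 13 held 3.29% in the control library (exact 95% binomial interval 2.67 to 4.01) and 2.27% in the library labelled depleted (1.78 to 2.85). These intervals, and all that follow, are exact binomial intervals at 95% and cover counting error alone. With 1 library per genotype there is no replicate error, no test was made, and a difference of at least 20 percentage points was used in its place to describe size. Counts per cell are unknown for both libraries, and fewer cells with a transcript cannot be told apart from lower capture.

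The label was checked against the shares of markers in both libraries, since being listed marks a difference between libraries and not a cell type. Of 16 classical monocyte markers 13 were listed, and Ccr2 was detected in 100% of cells of both libraries. Ly6c2 was detected in 95.8% of control cells and in 88.7% of cells labelled depleted. In the 4 fibroblast subclusters, which should lack it, Ly6c2 was found in 8.7% to 18.6% and in 3.1% to 10.0% of cells. Chil3, a chitinase-like protein of monocytes, was found in 97.9% and 91.5% of cluster 13 cells, and Vcan, F13a1, Gda and Ms4a4c were each at 92.6% or more in both libraries. Fibroblasts held F13a1 in at most 22.5% and 26.1% of cells and Ms4a4c in at most 13.1% and 17.4%, but Vcan in 80% to 100% and Gda in 60% to 97.2% and 60% to 96.9%, so that Vcan and Gda do not set cluster 13 apart from them. Chil3 also gave a share of 43.5% to 80.0% in control fibroblasts but of at most 9.4% in those of the library labelled depleted, so that the share of fibroblasts with this monocyte transcript differed between the libraries. Of 20 general macrophage and monocyte markers 8 were listed, with Lyz2 at 100% in both. Fibroblasts held Lyz2 in 80% to 90% and 47.6% to 70% of cells, so that it sets cluster 13 apart only in part. None of the lists for T cells, B cells, NK cells, endothelial cells, cardiomyocytes, erythroid cells or the cell cycle had a listed gene, and the 28 YAP/TAZ pathway genes had none either. A gene that is not listed has no value here, since the tables hold only genes past the authors' limits on share and fold change.

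Of the 893 genes, 497 (55.7%) were detected in a higher share of cells in the library labelled depleted, 326 (36.5%) in a lower share, and 70 in the same share. At least 20 points separated the libraries for 135 genes that were higher (15.1%) and for 102 that were lower (11.4%). Because the authors listed a gene only if its mean level differed, these percentages describe the table and are the background for the gene groups below, not a measure of response. The authors' limit of 25% of cells in either library also fixed the direction of 192 genes, 127 that reached it in the library labelled depleted alone and 65 in the control library alone. Of the 701 genes at 25% or more in both libraries 370 were higher and 261 lower, 75 and 74 of them by at least 20 points, so that the excess of large higher differences rests on genes whose direction the limit fixed. Every gene given below with a share under 25% in 1 library is of that kind. In addition, 250 of the 893 genes were in more than 80% of control cells and could not be higher by 20 points, so that medians in points are held near 0 in lists of such genes. For this reason log2 odds ratios (library labelled depleted over control) are given beside them where they differ in reading, and their median over all genes was 0.51. The median difference over all genes, library labelled depleted minus control, was 4.6 points, with quartiles of -10.7 and 16.6. Measured from that median the split is even by construction, with 446 genes higher and 444 lower. At 20 points from it 66 genes were higher and 167 lower, so that the direction with more large differences depends on centring. The intervals of the libraries did not overlap for 118 higher and 84 lower genes. The genes nearest the limit of 20 points lay at 20.1 and 19.9. Of the 70 genes with equal shares 68 were at 100% in both libraries, among them Ftl1, Apoe and Actb, and for these a share cannot show a difference in level. The 55 listed ribosomal protein genes belonged mostly to that class, with 39 at equal shares, 16 at lower shares and 0 at higher shares, and none differed by more than 9.9 points.

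**Figure D1:**
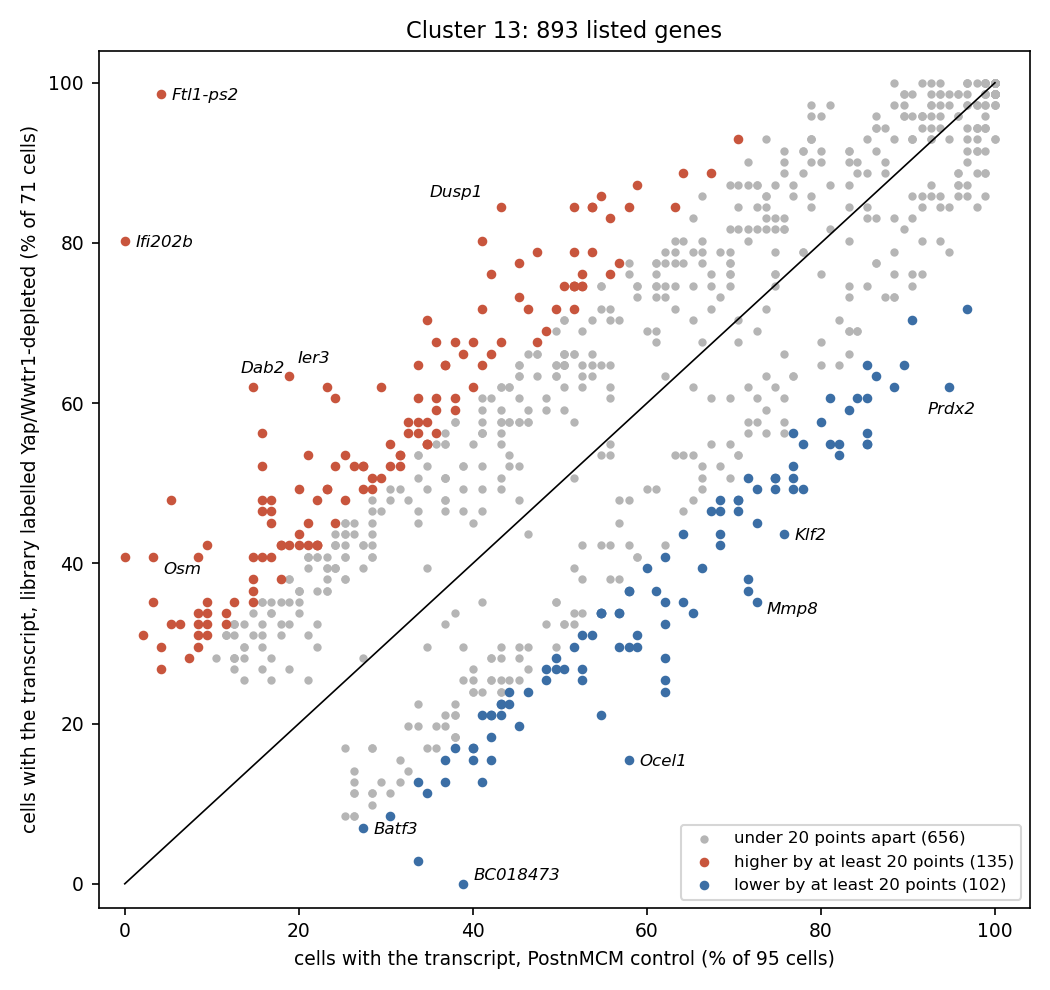
Each point is 1 of the 893 genes of cluster 13, with the percent of the 95 control cells that held its transcript on the x axis and the percent of the 71 cells of the library labelled depleted on the y axis. Red points are the 135 genes higher by at least 20 points and blue points the 102 lower by at least 20 points, and the line marks equal shares. Most points lie in 2 bands beside the line, while Ftl1-ps2 and Ifi202b lie far above it and BC018473 at 0.

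Inflammatory genes formed the group of highest median difference in points. All 12 listed members of a list of 32 inflammasome and cytokine genes had higher shares in the library labelled depleted, 7 of them by at least 20 points, with a median difference of 20.7 points against 4.6 over all genes. For 5 of the 12 (Osm, Trem1, Casp4, Nlrp3 and Il1rn), and 4 of the 7, the limit of 25% was reached in the library labelled depleted alone, which fixed their direction. The other 7 members, at 25% or more in both libraries, were also higher, 3 of them by at least 20 points, with a median of 19.9 points against 1.4 over the 701 such genes. Osm encodes oncostatin M, a cytokine of the interleukin 6 family made by activated myeloid cells. It was detected in 3 of 95 control cells (3.2%, interval 0.7 to 9.0) and in 29 of 71 cells labelled depleted (40.8%, 29.3 to 53.2). The intervals were far apart, and in the fibroblast subclusters its share was at most 4.8% and 8.7%. Cd14, the co-receptor for lipopolysaccharide, was found in 51.6% (41.1 to 62.0) of control cells and in 84.5% (74.0 to 92.0) of cells labelled depleted. Its partner receptor Tlr4 was found in 34.7% and 54.9%. Both receptors were thus in more cells of the library labelled depleted, although the intervals of Tlr4, 25.3 to 45.2 and 42.7 to 66.8, overlapped. Trem1, a receptor that amplifies signals of Toll-like receptors, was found in 9.5% and 35.2% of cells, and its intervals did not overlap. Casp4, the caspase that senses cytosolic lipopolysaccharide, had shares of 9.5% and 33.8%. Fibroblasts held Trem1 in at most 7.5% of cells but Casp4 in 4.3% to 17.5% of control cells and 9.5% to 47.8% of cells labelled depleted, so that Casp4 in cluster 13 stood no higher than in some fibroblasts. Nlrp3, the sensor of the inflammasome, was in 21.1% and 42.3% of cells, with intervals that touched at 30.6. Il1b, the cytokine this complex matures, was in 50.5% and 64.8%, a difference of 14.3 points.

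Chemokine genes divided. Of 33 genes 9 were listed, 7 at higher shares and 1 at a lower share, and 3 were higher by at least 20 points. Ccl2 and Cxcl2 passed the limit of 25% through the library labelled depleted alone. Ccl2, the ligand that draws Ccr2-positive monocytes, was found in 24.2% (16 to 34.1) of control cells and in 60.6% (48.3 to 72.0) of cells labelled depleted. The neutrophil attractant Cxcl2 was in 4.2% and 29.6%. The intervals of both genes were apart. In fibroblasts Ccl2 was in 10.0% to 26.1% and 14.3% to 40% of cells, and Cxcl2 in at most 6.7% and 10.0%. Cx3cr1, the fractalkine receptor, went the other way, and Ccr2, Ccl6, Ccl9, Ccr1 and Pf4 differed by 4.1 points or less, and the median of the list was 3.2 points. As a log2 odds ratio it was 2.18, the highest of all lists and above the 1.35 of the inflammatory list, while 4 of the 9 genes were in more than 80% of control cells, so that the place of this list among the others depends on the measure.

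**Figure D2:**
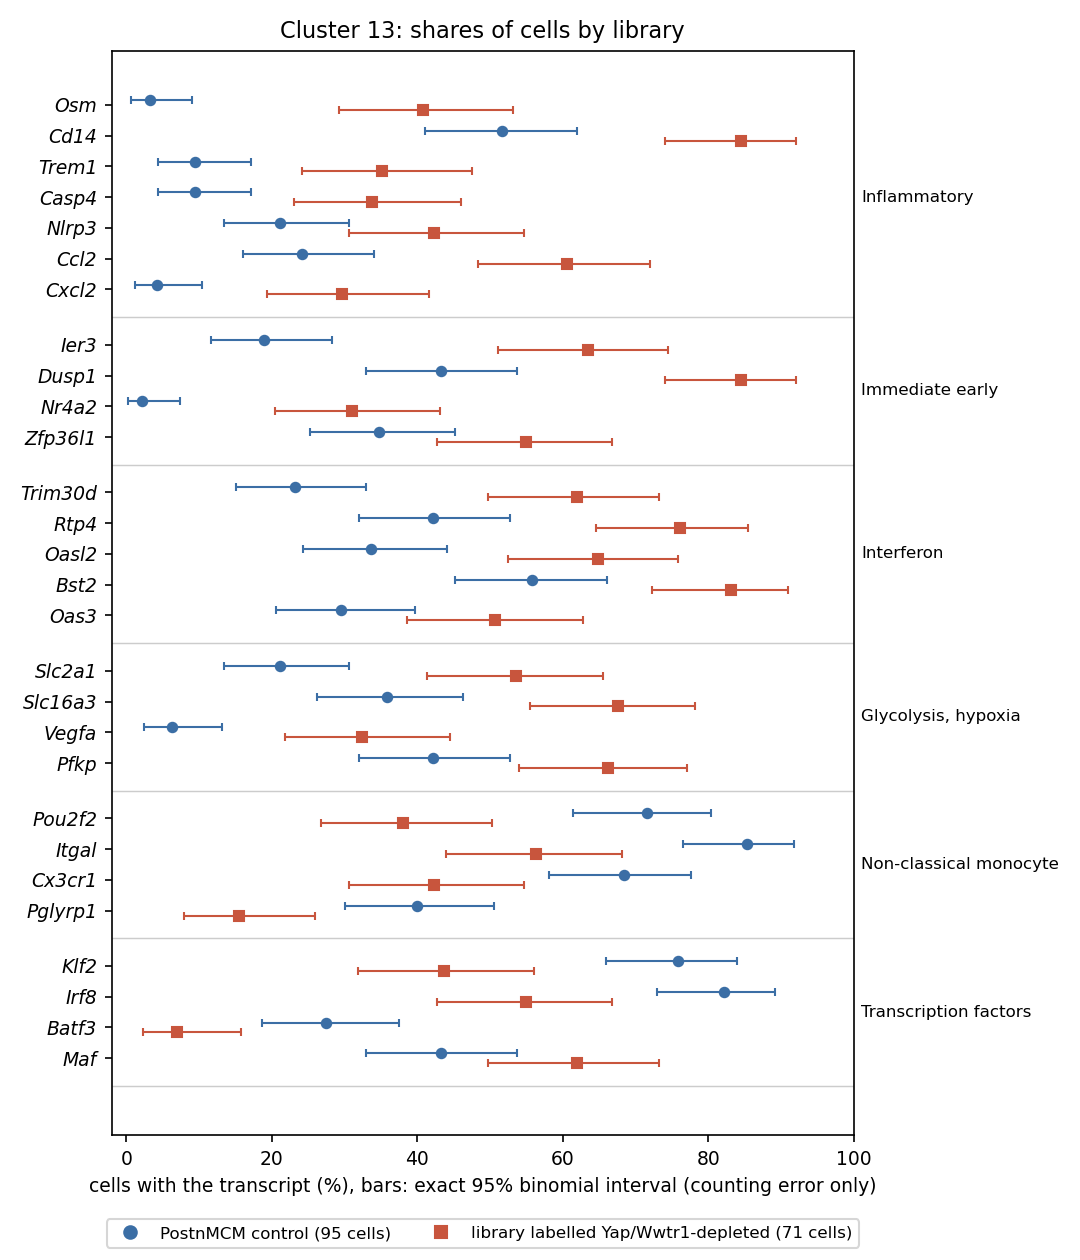
The x axis gives the percent of cluster 13 cells with the transcript, for genes named at the left in 6 groups. Blue circles are the control library (95 cells), red squares the library labelled depleted (71 cells), and bars are exact 95% binomial intervals, which cover counting error alone. Osm, Nr4a2 and Cxcl2 stand at 4.2% or less in the control library and at 29.6% to 40.8% in the library labelled depleted, while Pou2f2, Itgal, Klf2 and Irf8 are at lower shares in the library labelled depleted.

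Among immediate early and feedback genes 20 of 41 were listed, of which 16 had higher shares and 4 lower, with a median difference of 14.6 points. The limit of 25% fixed the direction of 4 of the higher genes, Ier3 and Nr4a2 among them, and the other 16 members were 12 higher and 4 lower, with a median of 13.4 points. Ier3, an early survival gene, was in 18.9% (11.6 to 28.3) of control cells and in 63.4% (51.1 to 74.5) of cells labelled depleted. Dusp1, a phosphatase that ends MAP kinase signalling, was in 43.2% (33.0 to 53.7) and 84.5% (74.0 to 92.0). The nuclear receptor Nr4a2 was in 2 control cells (2.1%) and in 22 cells labelled depleted (31.0%). None of these 3 genes had overlapping intervals. Fibroblasts expressed Ier3 in 80.0% to 97.2% and 52.4% to 90.6% of cells and Nr4a2 in 21.7% to 25% and 26.1% to 40%, so that the share of cluster 13 lay below or within the range of fibroblasts in both libraries. Dusp1 was in 53.3% to 84.1% and 66.7% to 84.4% of fibroblasts. Zfp36l1, which speeds decay of AU-rich mRNAs, had shares of 34.7% and 54.9%. The transcription factor genes Fos and Jun differed by 13.6 and 18.8 points and Junb by 2.8. Klf2, a factor that keeps monocytes and endothelium quiescent, was the largest of the 4 lower genes, with 75.8% (65.9 to 84.0) and 43.7% (31.9 to 56.0).

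Interferon-stimulated genes were listed for 21 of 91 members, 14 at higher and 7 at lower shares, with a median difference of 12.5 points. Of the 17 at 25% or more in both libraries 11 were higher and 6 lower, with a median of 12.4 points. Trim30d passed the limit through the library labelled depleted alone, and without it 5 of the 17 were higher by at least 20 points. Trim30d, of the TRIM family of ubiquitin ligases, was in 23.2% (15.1 to 32.9) of control cells and in 62.0% (49.7 to 73.2) of cells labelled depleted. Rtp4, a chaperone of receptors at the membrane, was in 42.1% and 76.1%. Oasl2, related to the synthetases that sense double-stranded RNA, was in 33.7% and 64.8%, and Bst2, or tetherin, which holds budding virus at the cell surface, in 55.8% and 83.1%. All 4 had intervals that did not overlap. Lgals3bp (33.7% and 60.6%) and Oas3 (29.5% and 50.7%) completed the 6 that were higher by at least 20 points. The 7 lower genes included Parp14 at 70.5% and 53.5%, Ifitm6 at 94.7% and 78.9%, and Mx1, a GTPase that traps viral nucleocapsids, at 25.3% and 16.9%. None of these 7 was lower by 20 points. Fibroblasts held Bst2 in at least 82.6% of cells in both libraries and Rtp4 in 4.3% to 51.7% of control cells and 57.1% to 71.9% of cells labelled depleted.

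The promoters of interferon genes often hold the interferon-stimulated response element, whose core was searched here as GAAANNGAAA or, on the other strand, TTTCNNTTTC. The windows ran from 250 bases before to 50 bases after each start in RefSeq (GRCm38.p6), and overlapping matches were all kept. Counting a gene if any of its promoters held the core, a match was present in 1079 of 27025 genes with a promoter (4.0%) and in 50 of the 697 listed genes that had one (7.2%). Among the interferon members 6 of 15 with a promoter held it, 5 of 10 at higher shares and 1 of 5 at lower shares. The lower gene was Trim30a, at -0.8 points, whose match has the same letters as that of its relative Trim30d. Of the 6 genes higher by at least 20 points 5 had a promoter, and the 3 with a match are shown because they join the core to these members. Each is printed 5′ to 3′ on the strand of the gene, with the match in capitals, which in Bst2 is a pair of overlapping matches.
Bst2 (GRCm38.p6, chr8:71537423-71537722, minus strand): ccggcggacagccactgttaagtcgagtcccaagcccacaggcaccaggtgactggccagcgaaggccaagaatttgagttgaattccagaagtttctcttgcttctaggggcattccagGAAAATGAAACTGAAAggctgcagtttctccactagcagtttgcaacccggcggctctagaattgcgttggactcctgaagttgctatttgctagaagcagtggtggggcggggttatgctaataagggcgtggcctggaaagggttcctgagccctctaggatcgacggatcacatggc
Oas3 (GRCm38.p6, chr5:120777610-120777909, minus strand): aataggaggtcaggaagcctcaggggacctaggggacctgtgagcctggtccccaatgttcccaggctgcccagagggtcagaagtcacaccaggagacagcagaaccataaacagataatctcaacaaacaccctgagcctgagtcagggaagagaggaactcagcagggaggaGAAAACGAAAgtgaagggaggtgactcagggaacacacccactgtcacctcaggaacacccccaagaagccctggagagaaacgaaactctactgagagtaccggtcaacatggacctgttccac
Trim30d (GRCm38.p6, chr7:104507800-104508099, minus strand): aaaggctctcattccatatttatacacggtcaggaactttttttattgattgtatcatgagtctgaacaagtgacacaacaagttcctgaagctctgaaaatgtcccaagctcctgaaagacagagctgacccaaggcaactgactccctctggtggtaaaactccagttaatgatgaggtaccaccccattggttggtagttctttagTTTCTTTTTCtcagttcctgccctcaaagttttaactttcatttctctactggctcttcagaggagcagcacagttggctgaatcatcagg
The first base of the match lies 130 bases upstream of the start in Bst2, 75 in Oas3 and 41 in Trim30d. Oasl2 and Lgals3bp had no match in these windows, and Rtp4 had no promoter in the table. The CArG box, bound by serum response factor at early genes, was searched in the same windows. It was found in 1 of the 18 immediate early and feedback genes with a promoter, Zfp36, in 0 of the 15 interferon genes, in 16 of the 697 listed genes (2.3%) and in 1.8% of all genes. A match describes letters in a window and does not show that a factor binds there.

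Glycolysis and hypoxia genes had 13 of 37 members listed, 10 at higher and 3 at lower shares, and 4 were higher by at least 20 points, with a median of 10.4 points. Of the 11 at 25% or more in both libraries, which leave out Slc2a1 and Vegfa, 8 were higher and 3 lower, with a median of 9.0 points. Slc2a1, the glucose transporter GLUT1, was in 21.1% (13.4 to 30.6) of control cells and in 53.5% (41.3 to 65.5) of cells labelled depleted. Slc16a3, which exports lactate, was in 35.8% and 67.6%. The angiogenic factor Vegfa was in 6.3% and 32.4%, and Pfkp, a phosphofructokinase, in 42.1% and 66.2%. For all 4 genes the intervals did not overlap. Hif1a, the factor that drives many of these genes in low oxygen, was in 73.7% and 93.0% of cells. Pkm was at 100% and 98.6% and Ldha at 88.4% and 97.2%, near the ceiling of the measure, and the log2 odds ratio of Ldha, 1.92, was close to the 2.08 of Slc2a1. Ldhb was lower at 45.3% and 29.6%. In fibroblasts Vegfa was in 27.5% to 56.5% and 33.3% to 53.1% of cells, and Slc2a1 in 27.6% to 47.8% and 9.5% to 30%.

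Non-classical monocyte markers stood at the other end. All 5 listed of 20 had lower shares in the library labelled depleted, 4 of them by at least 20 points, with a median of -26.1 points. The direction of Pglyrp1 was fixed by the limit of 25%, and the other 4 had a median of -27.6 points. Pou2f2, a POU-domain transcription factor, was in 71.6% (61.4 to 80.4) of control cells and in 38.0% (26.8 to 50.3) of cells labelled depleted. Itgal, the alpha chain of the integrin LFA-1, was in 85.3% and 56.3%, and Cx3cr1 in 68.4% and 42.3%. Pglyrp1, a peptidoglycan-binding protein, was in 40% and 15.5%, and Clec4a3 in 96.8% and 85.9%. The intervals of Pou2f2, Itgal, Cx3cr1 and Pglyrp1 were apart, and those of Clec4a3 overlapped. Fibroblasts held Pou2f2 in at most 10.0% and 13% of cells and Cx3cr1 in at most 20% and 12.5%, below cluster 13 in both libraries. Itgal was in at most 23.3% and 21.9% of fibroblasts and Clec4a3 in at most 20.7% and 17.4%. Pglyrp1 was in 4.3% to 19.3% of control fibroblasts and in 0% to 40% of those of the library labelled depleted, a range that includes its 15.5% in cluster 13. The 40% was that of subcluster 4 alone, and the other subclusters were at 4.8% or less. Defining members such as Nr4a1, Ace and Spn were not listed and have no value.

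Transcription factors of the monocyte lineage had shares on both sides. Of 14 listed of 30, 8 had lower and 6 higher shares, and all 4 that differed by at least 20 points were lower. Without the 2 lower genes whose direction the limit of 25% fixed, Batf3 among them, 6 were lower and 6 higher. Irf8, which commits progenitors to the monocyte and dendritic lineages, was in 82.1% (72.9 to 89.2) of control cells and in 54.9% (42.7 to 66.8) of cells labelled depleted. Batf3, needed for a class of conventional dendritic cells, was in 27.4% and 7.0%. With Klf2 and Pou2f2 these made the 4, and their intervals were apart. Maf, which favours macrophage maturation, was instead at a higher share, 43.2% and 62.0%, by less than 20 points and with overlapping intervals. Batf3 was the 1 listed gene of 14 dendritic cell markers.

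Adhesion and maturation genes showed both directions. Of 23 integrins and adhesion receptors 8 were listed, 5 at lower and 3 at higher shares. Itga4, which binds VCAM-1, was in 89.5% and 64.8% of cells. Itga5, the fibronectin receptor chain, was in 31.6% and 49.3%. Fibroblasts held Itga4 in at most 16.6% and 17.4% of cells, but Itga5 in 42.5% to 78.3% and 42.9% to 70%. Within the classical markers Thbs1, thrombospondin 1, was in 53.7% (43.2 to 64.0) of control cells and in 78.9% (67.6 to 87.7) of cells labelled depleted. Fibroblasts held Thbs1 in 39.3% to 87.5% and 43.5% to 90% of cells, ranges that include both shares. The median of the classical list was 0.0, with 9 of its 13 listed genes in more than 80% of control cells. The 3 listed MHC class II genes, H2-DMa, H2-DMb1 and their activator Ciita, had lower shares by 17 to 20.1 points, but Ciita, at 34.7% and 16.9%, passed the limit of 25% through the control library alone, which fixed its direction. Of 15 lipid-associated and repair macrophage genes 10 were listed, 7 higher and 2 lower. The limit fixed the direction of 3 of the higher genes, among them Vegfa and the tetraspanin Cd9 at 12.6% and 32.4%, and the other 7 members were 4 higher and 2 lower, with a median of 1.1 points and none past 20 points. The lipid droplet protein Plin2 was at 81.1% and 97.2%, and in fibroblasts at 60.9% to 90% and 87.5% to 100%. Spp1, or osteopontin, was in 37.9% and 33.8% of cells, but in 60% to 66.9% of control fibroblasts and 9.5% to 43.5% of those labelled depleted. Its share thus does not set cluster 13 apart from fibroblasts, and the source of this RNA was not tested. Of 18 resident macrophage markers 5 were listed, with a median of 0.8 points that is -5.4 without Ms4a7, whose direction the limit fixed. Among them C1qb of the complement C1 complex was in 52.6% and 26.8%, but in 77.5% to 82.8% of control fibroblasts and 10.0% to 47.6% of those labelled depleted. The same limit holds for its share. Defining resident genes such as Timd4, Lyve1 and Folr2 were not listed.

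Phagocytic receptors, lysosomal enzymes, chaperones and actin cytoskeleton genes had medians of 3.2, 3.9, 0.7 and 0.0 points. Their median log2 odds ratios were 0.73, 0.8, 0.09 and -0.42, the first and second above the 0.51 of all genes and the last the value that 100% in both libraries gives at these cell numbers. Lilr4b, a leukocyte immunoglobulin-like receptor, was in 50.5% and 74.6%, and Lair1, an inhibitory collagen receptor, in 43.2% and 23.9%. No lysosomal, chaperone or actin member passed 20 points, but 9 of 11, 6 of 11 and 10 of 11 of them were in more than 80% of control cells, where a share cannot show such a higher difference. The 5 listed MHC class I genes of 23 had a median of 0.0, with B2m at 100% in both libraries and H2-T24, whose direction the limit fixed, at 22.1% and 42.3%. Of these 5 genes 4 were in more than 80% of control cells. Hspa1a and Hspa1b, which are near-identical copies, each stood at 28.4% and 16.9%. Of 19 ferritin and iron genes 4 were listed, and of 16 S100 and annexin genes 6, with a median of -0.4 points.

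**Figure D3:**
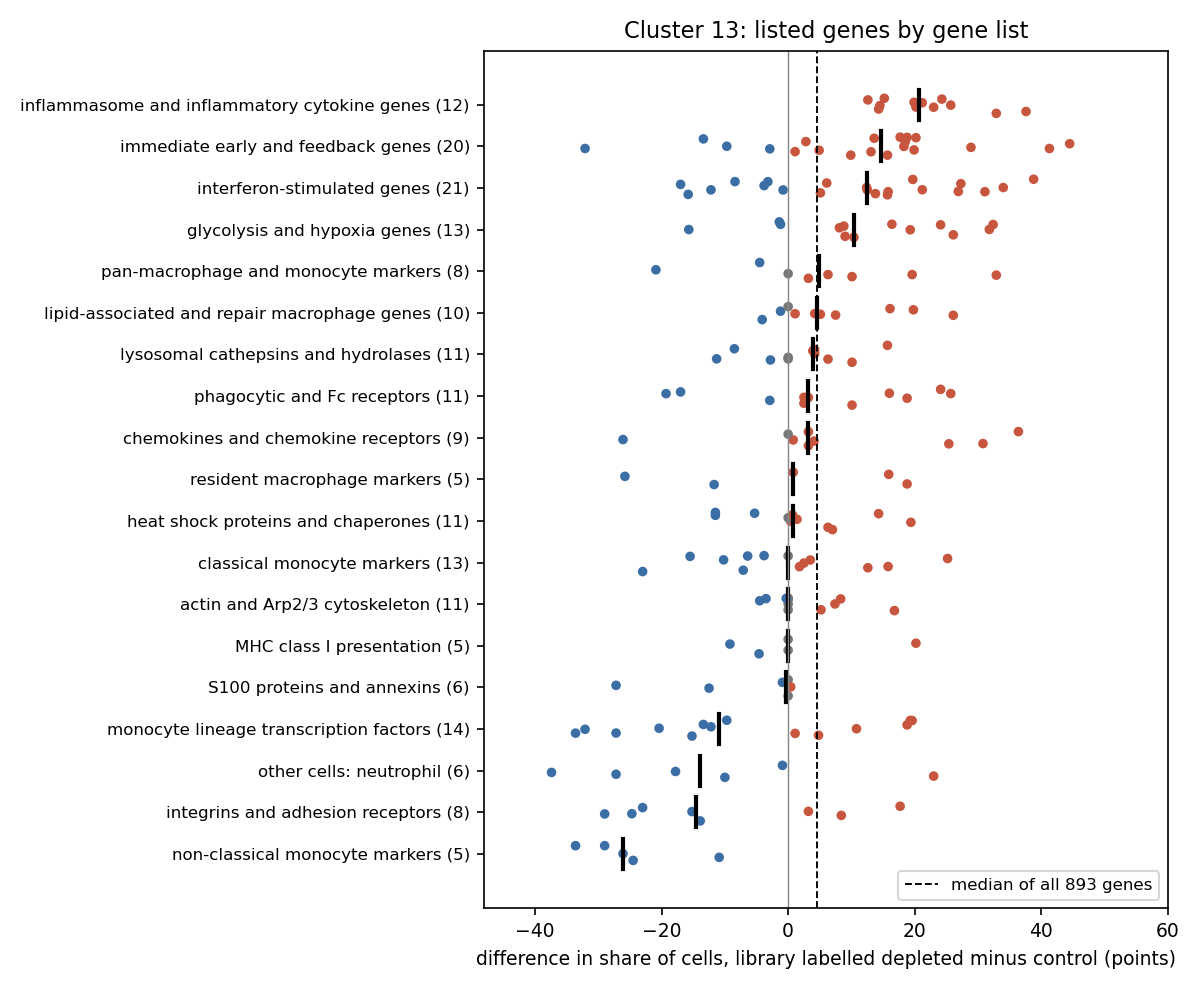
Each point is a listed gene, placed by its difference in share of cells (library labelled depleted minus control, in points), in rows for the gene lists with at least 5 listed members, whose number is in brackets. Black bars are list medians, the dashed line is the median of all 893 genes at 4.6 points, and points are spread vertically for legibility. The list medians run from 20.7 points for inflammasome and cytokine genes to -26.1 for non-classical monocyte markers.

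Most of the listed neutrophil markers were found in fewer cells of the library labelled depleted. Of 17 neutrophil markers 6 were listed, 5 at lower shares and 1 at a higher share. Mmp8, a collagenase of neutrophil granules, was in 72.6% (62.5 to 81.3) of control cells and in 35.2% (24.2 to 47.5) of cells labelled depleted. In fibroblasts Mmp8 was in at most 11.7% and 3.1% of cells, well below cluster 13. In the 2 other clusters that listed Mmp8 its control share was at most 63.6%. Whether it came from neutrophils or from the cells of cluster 13 was not tested. S100a9, a calprotectin subunit, was in 56.8% and 29.6% of cluster 13 cells but in 85.0% to 96.7% and 38.1% to 60% of fibroblasts. Its shares therefore do not set cluster 13 apart from fibroblasts. Nor do those of Lcn2 at 26.3% and 8.5%, where fibroblasts had 17.4% to 37.5% and 4.8% to 31.2%. Whether the cells themselves made this RNA was not tested. The other subunit, S100a8, was at 51.6% and 50.7%, also no higher than in fibroblasts (78.3% to 91.0% and 40% to 71.4%). Over the 6 markers the median share was 54.2% and 41.6% in cluster 13, and between 17.4% and 27.5% and between 14.2% and 20.3% in the fibroblast subclusters. Clec4d, a lectin shared by neutrophils and inflammatory monocytes, was higher at 51.6% and 74.6%. The defining granulocyte genes Ly6g, Retnlg and Cxcr2 were not listed. The part of neutrophil RNA in the other results was not tested. Of 16 fibroblast markers Mgp alone was listed, at 45.3% and 25.4%, while fibroblasts held it in at least 93.8% of cells.

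Many of the largest single differences recurred across tables of unrelated cell types. Ftl1-ps2, a processed pseudogene of ferritin light chain on chromosome 10 (GRCm39, chr10:130428026-130428574), was in 4.2% of control cells and in 98.6% of cells labelled depleted. It was listed in all 17 other cluster tables, each time higher, by 25.3 to 100 points, while the parent gene Ftl1 was at 100% in both libraries of cluster 13. Ifi202b, an interferon-inducible gene of the IFI200 family whose expression varies between inbred strains, was in 0 control cells and in 80.3% (69.1 to 88.8) of cells labelled depleted. It lies at chr1:173790134-173810414 of GRCm39 and was listed in 5 other tables, always at 0.0% in the control library. In the 4 fibroblast subclusters it was likewise at 0.0% in control cells, and in 57.1% to 82.6% of cells labelled depleted. Gm34084 was in 0 control cells and in 40.8% of cells labelled depleted. In the other direction the non-coding RNA gene BC018473 (chr11:116642993-116650199) was in 38.9% of control cells and in 0 cells labelled depleted, and in 15 other tables it was at 29.0% to 100% of control cells against at most 1.1%. The strain background of the mice and the genotype cannot be told apart with 1 library each. Ocel1, an occludin-domain gene and the lowest of all, was in 57.9% (47.3 to 68.0) and 15.5% (8.0 to 26) of cells and was lower in all 10 other tables that listed it. Gm7429, Rpl34-ps1 and Rpl27a-ps4 were higher, and Gm12191 lower, in every other table that listed them. Those 4 and Ftl1-ps2 are pseudogenes or gene models that can share reads with intact copies, so that their values are uncertain.

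Other large differences were seen in Dab2, Pilra, Prdx2, Ppfia4 and Rras, of which Dab2 reached 25% in the library labelled depleted alone and Ppfia4 in the control library alone, so that the limit fixed their directions. Dab2, an endocytic adaptor of maturing macrophages, was in 14.7% (8.3 to 23.5) of control cells and in 62.0% (49.7 to 73.2) of cells labelled depleted, the largest difference after Ftl1-ps2 and Ifi202b. It was listed in clusters 3 and 11 as well, where the differences were -6.5 and 9.8 points. Fibroblasts express it too, in 69.6% to 97.9% and 38.1% to 100% of cells. Pilra, an inhibitory receptor, was in 62.1% and 25.4%, and Prdx2, a peroxiredoxin that reduces hydrogen peroxide, in 94.7% and 62.0%. Both were lower in all 4 of the other macrophage clusters. Ppfia4, a liprin, was in 54.7% and 21.1%, and the small GTPase Rras in 65.3% and 33.8%.

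Genes listed in cluster 13 and in no other table numbered 99 (11.1%), against 1.7% to 31.2% alone over the 18 tables. Of these 68 were at higher and 31 at lower shares, 25 and 15 by at least 20 points, and their median difference was 15.3 points. The limit of 25% fixed the direction of 33 of the higher and 15 of the lower genes, Osm, Tes, Nr4a2, Got1, Fam133b, Dusp7, Rbfa and Batf3 among them, and the other 51 were 35 higher and 16 lower. Osm headed the higher genes. Tarm1, a receptor that stimulates myeloid cells, followed with 29.5% (20.6 to 39.7) and 62.0% (49.7 to 73.2), and fibroblasts held it in at most 3.4% of cells. The LIM protein gene Tes was in 16.8% and 47.9%, the reductase gene Por in 45.3% and 73.2%, and Got1, a transaminase, in 14.7% and 40.8%. Fam133b was in 23.2% and 49.3%, and Pxk in 26.3% and 52.1%. Fibroblasts held Por in 86.7% to 95% and 71.4% to 100% of cells, and Got1 in 39.1% to 63.3% and 23.8% to 56.5%. They held Fam133b in 57.5% to 73.3% and 60% to 82.6%, and Pxk in 34.8% to 70% and 38.1% to 90%. Tes was in 7.5% to 30.4% and 19% to 39.1% of fibroblasts. Nr4a2, Tlr4 and Lilr4b were also listed here alone. Among the lower genes Arhgef37 was in 71.6% (61.4 to 80.4) and 36.6% (25.5 to 48.9), and Cyria, which restrains Rac1 signalling to actin, in 62.1% and 28.2%. Susd3 was in 58.9% and 29.6%, and Rasgrp2, an exchange factor for Rap1, in 58.9% and 31.0%. Mettl9, Dusp7, Rbfa and Stom were lower by 24 to 26.9 points, and Batf3 was again in this set. Being listed in 1 table does not show that a gene was equal elsewhere, since each table lists genes past its own limits and rests on its own number of cells.

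**Figure D4:**
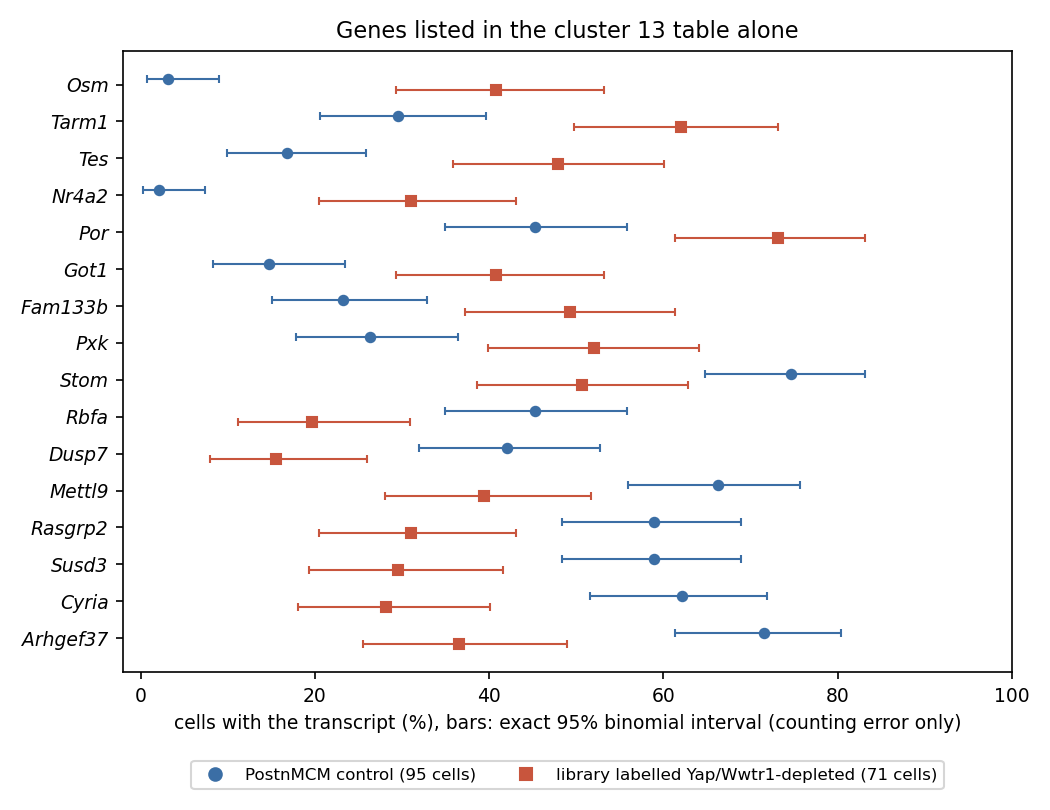
The 8 highest and 8 lowest differences among the 99 genes listed in the cluster 13 table alone. The x axis gives the percent of cells with the transcript, blue circles are the control library (95 cells), red squares the library labelled depleted (71 cells), and bars are exact 95% binomial intervals. The intervals of the libraries are apart for every gene from Osm to Pxk and from Stom to Arhgef37.

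The other macrophage clusters, 0, 3, 11 and 12, listed 498 of the 893 genes in at least 1 table and 38 in all 4. Cluster 0 listed 294 of them, cluster 3 191, cluster 11 223 and cluster 12 192. All clusters came from the same 2 libraries, so that a shared direction is no independent evidence, and the values are set side by side without a test. Interferon genes had positive medians in each macrophage cluster. Oasl2 differed by 31.1 points in cluster 13 and by 31.2, 21.0, 12.5 and 19.7 in clusters 0, 3, 11 and 12. In clusters 0, 11 and 12 it passed the authors' limit on share through the library labelled depleted alone, which fixed its direction. Bst2 differed by 27.3 points in cluster 13 against 19.3 to 31.3 in the others. The median over listed interferon genes was 12.5 points in cluster 13 and 20, 16.8, 11.4 and 15.8 in the others. The inflammatory list had medians of both signs, at 20.7 points in cluster 13, 8.9 in cluster 0, 11.7 in cluster 3, -15.6 in cluster 11 and 8.9 in cluster 12. Cd14 stood at 32.9 points in cluster 13 and at -1.9, 11.7 and -13.9 in clusters 0, 3 and 11. In cluster 11, at 36.8% and 22.9% of cells, Cd14 passed the authors' limit on share through the control library alone, which fixed its direction. Il1b was higher by 14.3 points in cluster 13, where clusters 3 and 11 had -14.5 and -20.9. Glycolysis and hypoxia genes had medians of 10.4 points in cluster 13 and of -10.2, 10.8, -5.6 and -4.0 in clusters 0, 3, 11 and 12. Slc2a1 was at 32.4 points in cluster 13 and at -18.2 in cluster 0. Non-classical monocyte markers had a median of -26.1 points in cluster 13, 20 in cluster 0, 10.6 in cluster 3, -16.6 in cluster 11 and -1.0 in cluster 12. Klf2 was at -32.1 points in cluster 13 and at 11.5, -17.4 and 3.9 in clusters 3, 11 and 12. Itgal was instead lower in each of the macrophage clusters that listed it, 13, 0 and 11, by 29.0, 27.1 and 28.5 points. In cluster 11, at 49.3% and 20.8% of cells, Itgal passed the limit on share through the control library alone, which fixed its direction. The lists hold different listed members in each cluster, and the median over all listed genes was 4.6 points in cluster 13 and 9.3, 3.7, -4.8 and 0.0 in clusters 0, 3, 11 and 12.

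**Figure D5:**
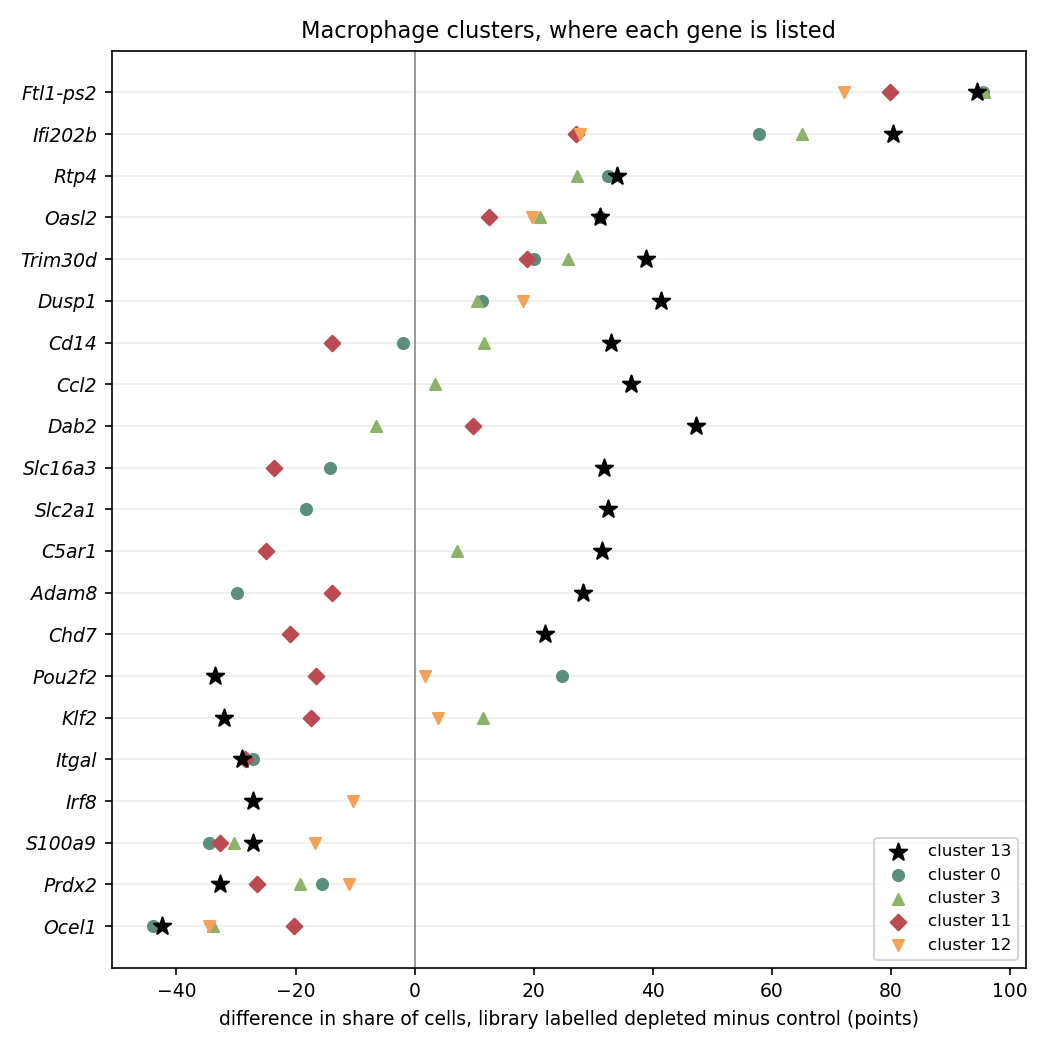
Differences in share of cells (library labelled depleted minus control, in points, x axis) for 21 genes in cluster 13 (stars) and in the macrophage clusters 0, 3, 11 and 12 where they were listed. For Ftl1-ps2, Ifi202b, the interferon genes, S100a9, Prdx2 and Ocel1 all symbols lie on the same side of 0, while Slc16a3, Adam8, Chd7 and Pou2f2 have symbols on both sides.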

How the data were processed

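Interstitial ventricular cells were captured with the 10x Chromium system (3′ chemistry, version as in the labels) in 2 libraries. Per the submitters' processing notes and the study's methods, the authors ran Cell Ranger 6.1.1 against GRCm39 and analysed the counts in Seurat, kept genes seen in at least 20 cells, normalised with SCTransform and clustered both libraries together. Their deposited tables give, per gene and cluster, the fraction of cells of each library with a corrected count above 0, to 3 decimals, and their own mean log2 fold change, p-value and adjusted p-value, none of which were used here. Listed genes had passed limits of 25% of cells in either library and 0.25 in log2 fold change. No doublet caller is named, and doublets could not be removed.

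Fractions were multiplied into percent and subtracted (depleted minus control). Cell numbers are the smallest N for which all shares equal whole cells within 0.0005, checked on simulated data. They are inferred, and multiples pass too. Exact (Clopper-Pearson) intervals came from scipy 1.17.1 in Python 3.11.15, tables from pandas 2.3.3 and figures from matplotlib 3.10.9. No test of genotype was made. Named are the 12 largest differences in each direction, the 8 largest among genes listed alone, the 5 largest shared with the other macrophage clusters, the 4 largest of each of the gene lists and all listed monocyte and macrophage markers, of which some are not reported here. Other members of the lists (such as Nlrp3, Il1b, Tlr4, Fos and Jun) were named after their values were seen. Members and lists were chosen with earlier results of these data known. Alternatives changed the measure, size limit, centring, minimum share and genes included. RefSeq promoters matched 697 of the 893 symbols. The labels and the study's methods differ on the day of collection, and the labels' day is given.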

Additional observations from a re-analysis of the deposited data

Results flagged for a closer look

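For 5 genes cluster 13 and another macrophage cluster lay at least 20 points apart from 0 in opposite directions. The differences between clusters were not tested, and each cluster holds 1 library per genotype. Adam8, a membrane protease of myeloid cells, was higher in the library labelled depleted by 28.2 points in cluster 13 and stood at -29.9 points in cluster 0. C5ar1, the receptor for complement C5a, was at 31.5 points in cluster 13 and at -25.0 in cluster 11. There it was in 27.1% and 2.1% of cells and passed the limit of 25% through the control library alone, which fixed that direction. The chromatin remodeller Chd7 was at 21.9 and -20.9 points in the same clusters. In cluster 11, at 43.8% and 22.9% of cells, the limit fixed its direction in the same way. Slc16a3, which exports lactate, was at 31.8 points in cluster 13 and at -23.6 in cluster 11. Its direction in cluster 11, at 38.2% and 14.6% of cells, was again fixed by the limit. Pou2f2 was at -33.6 points in cluster 13 and at 24.8 in cluster 0.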

How the results depend on the processing

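With 1 library per genotype, no alternative measures replicate error. No paired analysis was possible because each genotype had 1 library. Of the 86 recomputed values, 61 kept their direction and, for counts, stayed within 1.5 times the reported count; medians of lists were compared by sign alone, since centring shifts each by 4.6 points and log odds have another unit. Higher genes numbered 321 when a log2 odds ratio of at least 1 was required. The 20-point counts of 135 and 102 became 372 and 231 at 10 points and 32 and 15 at 30 points, as limits of another size must give. After subtraction of the median difference, a choice made after seeing the data, they were 66 and 167, so that which direction holds more genes depends on centring. With genes at 25% or more in both libraries, also chosen after seeing the data, 75 genes were higher by 20 points, 51 were listed alone, and the medians of resident macrophage and MHC class I genes were -5.4 and -2.3. Genes listed alone numbered 395 against clusters 0, 3, 11 and 12 only, and 40 with at least 20 points. Genes shared with those clusters numbered 247 with at least 10 points in both. The medians of the classical monocyte, MHC class I and actin lists moved from 0.0 points to -0.42 as log2 odds ratios, the value that 100% in both libraries gives at 95 and 71 cells, and to -4.6 points when centred. Centred medians were reversed for resident macrophage markers (-3.8), chemokines (-1.4), phagocytic receptors (-1.4), lysosomal genes (-0.7) and chaperones (-3.9). The shares say nothing of counts per cell, whose depth is unknown here.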
